A study of Homo sapiens with 12 samples.

Results

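The mRNA levels of 10 genes that keep mitochondrial proteins folded, degrade them or report their stress to the cytosol were followed in FDX2-iKO ES2 cells: the chaperone genes HSPD1, HSPE1, HSPA9 and DNAJA3, the protease genes LONP1, CLPP, CLPX, YME1L1 and OMA1, and DELE1. They were chosen by symbol, and all 10 passed the filter on low counts that left 16891 of the 58735 genes in the table. ES2 is a human ovarian cancer line. Every library came from cells that carry an HA-tagged FDX2, resistant to genome editing and expressed from a TetON promoter while doxycycline (Doxy) is present, over a CRISPR knockout of the endogenous FDX2 gene, so that cells without Doxy lose FDX2. FDX2 is a mitochondrial ferredoxin of iron-sulfur cluster assembly. The 4 conditions were 20% O2 + Doxy and 20% O2 wo Doxy, both for 6 days, and 3% O2 + Doxy and 3% O2 wo Doxy, with 4 days at 20% O2 and then 3 days at 3% O2. Each had 3 libraries, called biological replicates by the authors, and p-values measure the spread between these. Doxy was present only where FDX2 was expressed and can itself inhibit mitochondrial ribosomes, so its withdrawal and FDX2 loss cannot be told apart, nor can the oxygen level and the longer culture at 3% O2. FDX2-iKO cells are clonal, the study used the first of its clones wherever it does not state otherwise, and a difference between clones was not measured here.

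Most mitochondrial proteins are made in the cytosol, and those of the matrix are pulled across the inner membrane unfolded. HSPA9 (mortalin) pulls and holds them, and the HSPD1-HSPE1 chaperonin (HSP60 and HSP10) folds them in a closed chamber. DNAJA3 is a J-domain partner of HSPA9 in the matrix. LONP1 and the CLPX-CLPP complex degrade damaged proteins of the matrix, while YME1L1 and OMA1 act in the inner membrane. Under mitochondrial stress OMA1 cuts DELE1, the cut DELE1 reaches the cytosol and activates the kinase HRI (EIF2AK1), and phosphorylation of eIF2-alpha then raises translation of the transcription factor ATF4.

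Libraries held 24958386 to 34313637 counts on genes. FDX2 itself had 2 to 13 counts per library and was not tested, so the knockout could not be checked on these counts. The markers KRT18, KRT8, VIM and PAX8 were present, NAPSA, WT1, ESR1, MUC16, KRT19, EPCAM and CDH1 had at most 9 counts in any library, and of 8 markers of blood, endothelial and neuronal cells CDH5 alone exceeded 6 counts (656 to 1412). In 3 libraries, 20% O2 + Doxy replicate 1, 3% O2 + Doxy replicate 3 and 3% O2 wo Doxy replicate 2, genes rose with the GC content of their exons. Their deviations from the condition mean climbed by 0.19, 0.18 and 0.10 on the log2 scale per 10 points of GC, against −0.13 to 0.03 in the other 9. Results that this touches are also given after removing each library's GC trend and in the 9 other libraries. The GC correction takes out any trend with GC, including one that belongs to a condition.

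Per kilobase of exon, HSPD1 was the most abundant of the 10 at a mean level of 376 CPM per kb, where CPM are counts relative to the TMM-scaled library total, (275.7 to 450.5 over the 12 libraries), ahead of HSPA9 at 92.5 (79.6 to 101) and HSPE1 at 55.9 (37.5 to 73.3). LONP1 (27.0), CLPP (25.4) and YME1L1 (18.9) came next, each range overlapping the others. DNAJA3 (12.4) and DELE1 (11.4) overlapped as well. CLPX had 9.33 and OMA1 5.17 CPM per kb, the lowest, with no overlap between them. Lengths are unions of all annotated exons, which understates genes with long alternative ends. The fewest counts of any of the 10 in a library were 436, for OMA1.

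**Figure D1:**
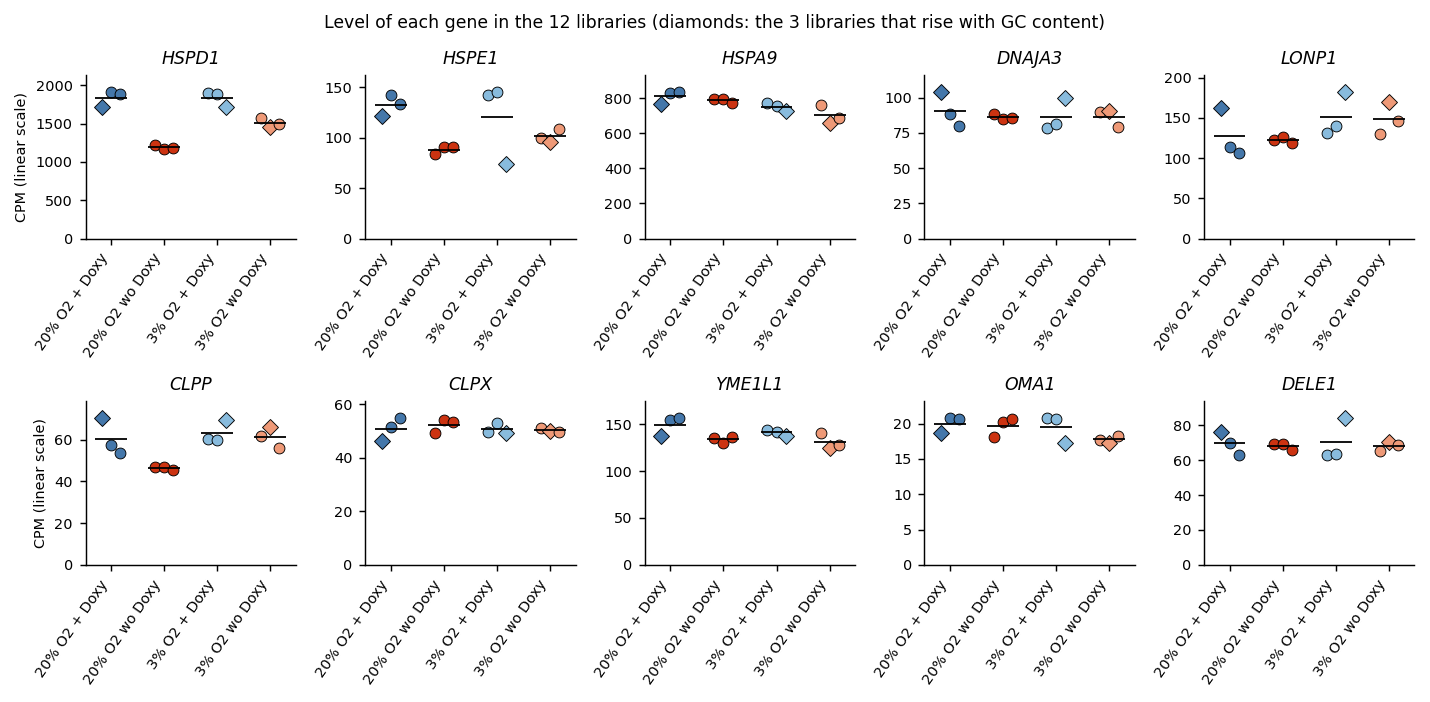
Level of each of the 10 genes in the 12 libraries, in CPM (linear axis from 0), by condition, with a line at the mean of 3 replicates and diamonds for the 3 libraries that rise with GC content. HSPD1 separates by Doxy at both oxygen levels (1217.6 CPM or less without Doxy against at least 1723 with it at 20% O2), HSPE1 has a low replicate in 3% O2 + Doxy at 74.1 CPM, and DELE1 overlaps between all conditions.

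FDX2 loss at 20% O2 lowered 3 of the 10 genes, HSPD1, HSPE1 and CLPP, and raised none, where 35.3% of all tested genes were called (an adjusted p under 0.05) and 17.7% were called lower. At 3% O2 only HSPD1 was called, lower, against 7.31% of all genes. With Doxy, 3% and 20% O2 gave 0 calls among the 10 by edgeR or by DESeq2 and 0 at an unadjusted p under 0.05, against 2.02% of all genes. Without Doxy, HSPD1 and CLPP were higher at 3% than at 20% O2, against 25.8% of all genes. The response to FDX2 loss itself differed between oxygen levels for HSPD1, against 7.29% of all genes. The shares of the 10 lie near these backgrounds, and 7 of them (all but HSPD1, HSPE1 and CLPP) were called in none of the 5 comparisons. The median log2 fold change of the 10 on FDX2 loss was −0.06 at 20% O2 and −0.08 at 3% O2, beside 0.01 and 0.04 over all tested genes.

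**Figure D2:**
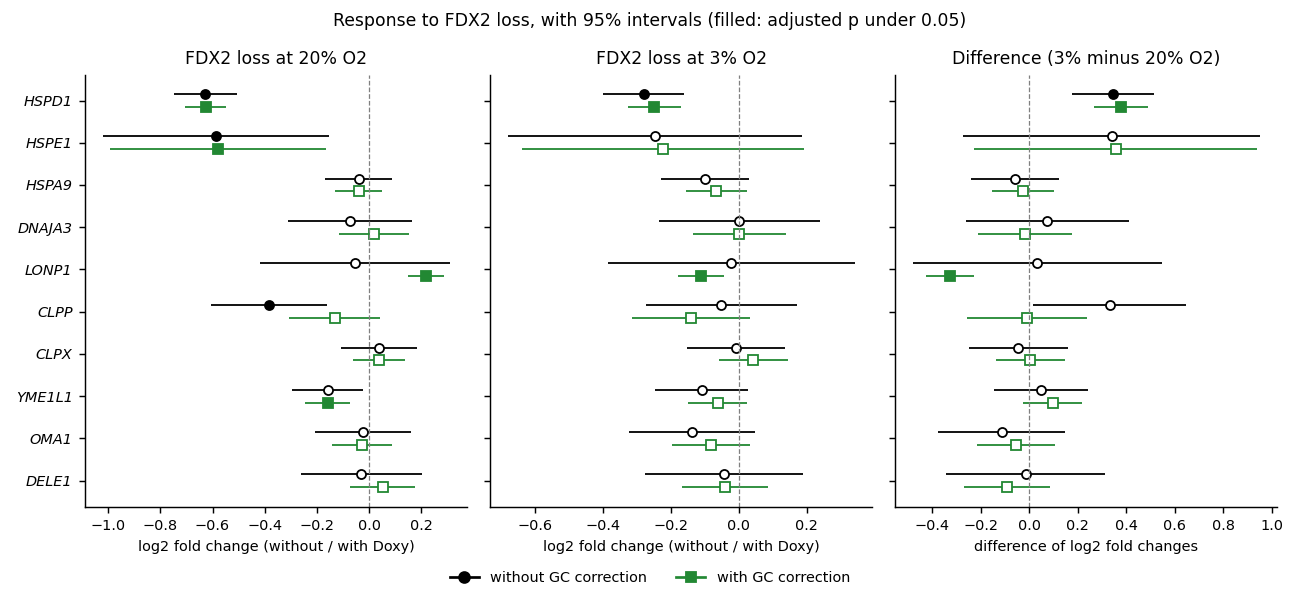
Log2 fold change on FDX2 loss (without over with Doxy) of the 10 genes at 20% O2, at 3% O2, and the difference of both responses, with 95% intervals, without (circles) and with (squares) GC correction. Filled symbols passed an adjusted p under 0.05: HSPD1 lies at −0.63 at 20% O2 in either form and at −0.28 and −0.25 at 3% O2, whereas LONP1 and CLPP change place with the correction.

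HSPD1 and HSPE1, whose products form the chaperonin, fell on FDX2 loss at 20% O2. The genes stand head to head on chromosome 2 (HSPD1, ENSG00000144381, 197486581 to 197516737, minus strand; HSPE1, ENSG00000115541, 197499994 to 197503457, plus strand, GRCh38), and 104 bases lie between their RefSeq starts 197500274 and 197500379. The RefSeq promoter windows (250 bases before each start, GRCh38.p14) were searched for the inverted repeats that the heat shock factor HSF1 binds, GAANNTTC and TTCNNGAA, each its own reverse complement. Of the 8 members with a window, HSPD1 alone had a match, and 11.6% of 35116 windows held either repeat. The site, shown with its overlapping repeats in capitals because it is the only one among the members, lies at chr2:197500061-197500090 and reads on the minus strand:
HSPD1 site: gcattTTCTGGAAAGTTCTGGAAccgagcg
The 18 capitals hold TTCNNGAA at either end and GAANNTTC across the middle. This arrangement is in 7 of the 35116 windows (0.0199%), but it is defined by this site, so its rarity tests nothing. They begin 245 bases before an inner HSPD1 start (197499840), 189 bases past the outer HSPD1 start and 294 bases before the HSPE1 start, just outside the HSPE1 window. GENCODE 29 places them in introns of 3 HSPD1 transcripts (HSPD1-201 among them) and in exons of 1 other HSPD1 transcript and of HSPE1-201. Of 11 cytosolic chaperone genes, 9 had either repeat in a window, and of the 12 ATF4 target genes with a window, 2 did. The core of the amino acid response element that ATF4 binds, TGATGNAA on either strand, was in 0 of the 8 members' windows, 4 of the 12 target genes' and 3.14% of all windows. CLPP and YME1L1 had no window in this set. A match describes letters only, and the factor's binding was not measured.

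HSPD1 had 1723, 1912 and 1888 CPM in the 3 replicates of 20% O2 + Doxy and 1218, 1170 and 1189 CPM in those of 20% O2 wo Doxy. It had 1902, 1891 and 1716 CPM in 3% O2 + Doxy and 1577, 1457 and 1501 in 3% O2 wo Doxy. The libraries without Doxy were the lower ones at each oxygen level, with no overlap, and the conditions with Doxy overlapped each other. At 20% O2 HSPD1 fell by 0.63 on the log2 scale (SE 0.055, 95% interval −0.75 to −0.51, adjusted p = 9.34e-06), to 0.647 of its level with Doxy. At 3% O2 the log2 fold change was −0.28 (SE 0.054, adjusted p = 0.0115), to 0.823. With Doxy, oxygen made a difference of −0.00 (95% interval −0.12 to 0.12), and without Doxy HSPD1 was higher at 3% O2 by 0.34 (adjusted p = 0.0013).

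The response of HSPD1 at 3% O2 was thus smaller than at 20% O2 by 0.35 on the log2 scale (SE 0.077, 95% interval 0.18 to 0.52, adjusted p = 0.0222). That call was lost when any of 5 libraries was left out (20% O2 + Doxy replicate 2, each replicate of 20% O2 wo Doxy, 3% O2 + Doxy replicate 2; adjusted p 0.0594 to 0.106, difference 0.32 to 0.36), and it stood at 0.38 with GC correction (adjusted p = 0.000441) and 0.36 in the 9 libraries (adjusted p = 0.00354). The fall at 3% O2 was not called without 3% O2 + Doxy replicate 2 (−0.27, adjusted p = 0.0722). A ratio within each library needs no scaling: counts of HSPD1 per count of HSPA9 were 2.25, 2.30 and 2.26 in 20% O2 + Doxy and 1.53, 1.47 and 1.53 in 20% O2 wo Doxy. At 3% O2 they were 2.46, 2.50 and 2.36 with Doxy and 2.07, 2.22 and 2.19 without. The matrix chaperones therefore changed unequally, and the ratios separate by Doxy at either oxygen level. MKI67, a proliferation marker picked after its values were seen, moved alongside HSPD1 (log2 fold change −1.37 at 20% O2, −0.59 at 3% O2), and its part in the result was not tested. The processed pseudogene HSPD1P1, 1 of 18 HSPD1 pseudogenes in the annotation, had 252 to 614 counts and a log2 fold change of −0.76 at 20% O2 (it too was picked after its values were seen), and reads shared with HSPD1 cannot be separated.

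HSPE1 had 121, 142 and 134 CPM in 20% O2 + Doxy and 83.3, 90.4 and 90.5 in 20% O2 wo Doxy, without overlap. In 3% O2 + Doxy the replicates had 143, 145 and 74.1 CPM, and in 3% O2 wo Doxy 99.96, 95.6 and 109. Replicate 3 of 3% O2 + Doxy therefore lay below every library of the opposite condition, although its HSPD1 level did not: HSPD1 had 23.2 counts per HSPE1 count there and 12.9 to 15.8 in the other 11 libraries. The log2 fold change on FDX2 loss was −0.59 at 20% O2 (SE 0.197, adjusted p = 0.0381), a call that survived leaving out 1 of the 6 libraries compared but not any of the others (adjusted p 0.0494 to 0.119, −0.66 to −0.54). At 3% O2 it was −0.25 (95% interval −0.68 to 0.18, adjusted p = 0.486), and without replicate 3 of 3% O2 + Doxy −0.50 (adjusted p = 0.00492). In the 9 libraries, which also leave out that low replicate, the changes were −0.66 at 20% O2 (SE 0.050, adjusted p = 1.6e-05) and −0.48 at 3% O2 (adjusted p = 0.00175), and the difference of the responses was 0.18 (95% interval 0.01 to 0.35, adjusted p = 0.157). GC correction kept the low replicate at 73.7 CPM. It gave −0.58 at 20% O2 (SE 0.189, adjusted p = 0.0250) and −0.22 at 3% O2 (adjusted p = 0.439). HSPE1 shares 23.9% of its exonic bases with HSPD1 and the readthrough gene HSPE1-MOB4 (0 to 5 counts per library), and it has 26 annotated pseudogenes.

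HSPA9 (ENSG00000113013, chromosome 5, 138553756 to 138575724), the Hsp70 of the matrix, stayed between 657 and 835 CPM in all libraries. It had 764.5, 831 and 835 CPM in 20% O2 + Doxy against 794, 794 and 775 in 20% O2 wo Doxy, which overlap. The change on FDX2 loss was −0.04 at 20% O2 (95% interval −0.17 to 0.09) and −0.10 at 3% O2 (−0.23 to 0.03). Without Doxy it was lower at 3% than at 20% O2 by its values (763, 657 and 687 CPM against those above, no overlap), yet missed the threshold at −0.17 (adjusted p = 0.0588). HSPA9 passed there by DESeq2 (−0.18, adjusted p = 0.0225), with library totals in place of TMM (−0.27, adjusted p = 0.0162) and without 3% O2 wo Doxy replicate 1 (−0.23, adjusted p = 0.0131). DNAJA3 (ENSG00000103423, chromosome 16, 4425805 to 4456775), its J-domain partner, ranged from 78.3 to 104 CPM, with intervals of −0.31 to 0.16 at 20% O2 and −0.24 to 0.24 at 3% O2.

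Among the matrix proteases, CLPP (ENSG00000125656, chromosome 19, 6361452 to 6368910), the peptidase of the complex, and LONP1 (ENSG00000196365, chromosome 19, 5691834 to 5720572) gave answers that rest on how GC content is handled. Their exons have 62.1% and 62.3% GC, against a median of 48.4% over tested genes. CLPP had 70.2, 57.5 and 53.5 CPM in 20% O2 + Doxy and 46.8, 46.9 and 45.3 in 20% O2 wo Doxy. At 3% O2 it had 60.5, 60.01 and 69.7 with Doxy and 61.9, 65.9 and 55.9 without. The 3 libraries of 20% O2 wo Doxy were below all the others. CLPP fell at 20% O2 by 0.38 on the log2 scale (SE 0.101, adjusted p = 0.0131) and was higher at 3% than at 20% O2 without Doxy by 0.40 (adjusted p = 0.0156). With GC correction these were −0.13 (adjusted p = 0.205) and 0.07 (adjusted p = 0.539), and in the 9 libraries −0.27 (adjusted p = 0.00411) and 0.34 (adjusted p = 0.00195). The second call was also lost without 20% O2 wo Doxy replicate 3 (adjusted p = 0.0506) or 3% O2 wo Doxy replicate 2 (adjusted p = 0.0643).

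LONP1 had 162, 114 and 106 CPM in 20% O2 + Doxy and 122, 126 and 118 in 20% O2 wo Doxy. At 3% O2 it had 131, 140 and 182 CPM with Doxy and 130, 170 and 147 without. The highest replicate of each of these 3 conditions with a wide spread was the library that rose with GC, by 0.37, 0.28 and 0.20 above its condition mean on the log2 scale. In the 12 libraries without GC correction, LONP1 did not pass the test in any of the 5 comparisons (FDX2 loss at 20% O2 −0.06, 95% interval −0.42 to 0.31). After GC correction the spread shrank (SE 0.0315 from 0.165). The sign turned at 20% O2, for the difference and for oxygen without Doxy (from 0.28 to −0.06, called in neither fit). LONP1 was then higher on FDX2 loss at 20% O2 by 0.22 (adjusted p = 0.000147), lower at 3% O2 (−0.11, adjusted p = 0.0284), and the difference was −0.33 (adjusted p = 0.000481). With Doxy it was higher at 3% than at 20% O2 by 0.26 (adjusted p = 0.000315). In the 9 libraries the change at 20% O2 was 0.15 (95% interval 0.02 to 0.27, adjusted p = 0.0605), that at 3% O2 0.01, and the oxygen difference with Doxy 0.31 (adjusted p = 0.0335). The labels state no pairing, but deviations of same-numbered libraries correlated between the conditions without Doxy. A fit to those 6 libraries with replicate number as a block, added for this reason, called LONP1 higher at 3% O2 (0.26, adjusted p = 0.0447). The same fit with GC correction gave −0.07 (adjusted p = 0.196). CLPP in these fits was 0.39 (adjusted p = 0.00934) and 0.06 (adjusted p = 0.552), and HSPE1 0.19 (adjusted p = 0.0523) and 0.23 (adjusted p = 0.0168).

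**Figure D3:**
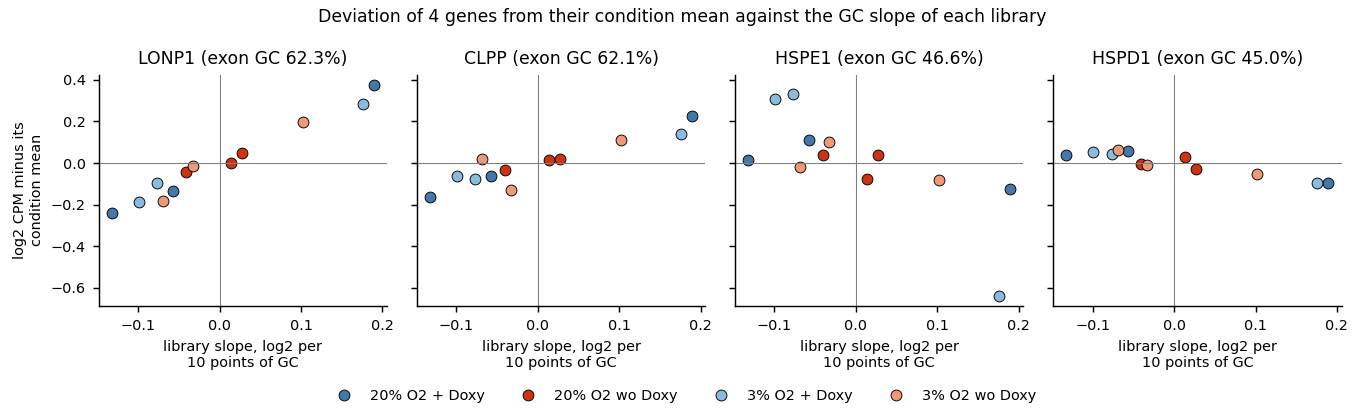
Deviation of LONP1, CLPP, HSPE1 and HSPD1 from their condition mean (log2 CPM) in each library against the slope of that library's deviations with gene GC content (log2 per 10 points of GC), coloured by condition. LONP1 climbs from −0.24 to 0.37 along the slope, CLPP does so less (−0.16 to 0.23), and the low HSPE1 value of −0.64 belongs to 3% O2 + Doxy replicate 3.

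CLPX (ENSG00000166855, chromosome 15, 65148219 to 65185342), the unfoldase that feeds CLPP, has 42.0% GC and moved little: 46.3 to 54.6 CPM over all libraries, with a change of 0.04 on FDX2 loss at 20% O2 (95% interval −0.11 to 0.18) and −0.01 at 3% O2 (−0.15 to 0.14). Counted over the 10 genes, the GC-corrected fit called 4 at 20% O2 (HSPD1, HSPE1 and YME1L1 lower, LONP1 higher, against 46.7% of all genes), 2 at 3% O2 (HSPD1 and LONP1 lower, 19.5%), 1 for oxygen with Doxy (LONP1, 7.76%), 1 without Doxy (HSPD1, 34.1%) and 2 for the difference (HSPD1 and LONP1, 18.8%). The 9 libraries gave 4 lower at 20% O2 (HSPD1, HSPE1, CLPP and YME1L1, against 42.5%) and 2 lower at 3% O2 (HSPD1 and HSPE1, 15.2%). For oxygen they gave 1 with Doxy (LONP1, against 3.03%) and 4 without (HSPD1, HSPE1, LONP1 and CLPP, 33.5%), and for the difference 1 (HSPD1, 15.0%). HSPD1 was called by all 3 fits in each comparison except oxygen with Doxy, and HSPE1 by all 3 for FDX2 loss at 20% O2.

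The inner membrane proteases and DELE1 gave small or undetected changes. YME1L1 (ENSG00000136758, chromosome 10, 27110112 to 27155266), an ATP-dependent protease facing the intermembrane space, had 137, 155 and 156 CPM in 20% O2 + Doxy and 135, 130 and 136 in 20% O2 wo Doxy. These do not overlap, but the difference of −0.16 missed the threshold (adjusted p = 0.0694). It passed with GC correction (−0.16, adjusted p = 0.00566), in the 9 libraries (−0.23, adjusted p = 0.00463) and by DESeq2's Wald test (−0.17, adjusted p = 0.0393). At 3% O2 its interval ran from −0.25 to 0.03. OMA1 (ENSG00000162600, chromosome 1, 58415384 to 58546802), the stress-activated protease that cuts DELE1, had 18.6, 20.7 and 20.6 CPM in 20% O2 + Doxy and 18.1, 20.2 and 20.6 in 20% O2 wo Doxy. It had 20.7, 20.7 and 17.2 in 3% O2 + Doxy and 17.7, 17.3 and 18.3 in 3% O2 wo Doxy. The intervals were −0.21 to 0.16 at 20% O2 and −0.32 to 0.05 at 3% O2.

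DELE1 (ENSG00000081791, chromosome 5, 141923808 to 141942047), the messenger from mitochondria to HRI, had 76.1, 69.9 and 62.9 CPM in 20% O2 + Doxy and 69.2, 69.2 and 66.0 in 20% O2 wo Doxy. At 3% O2 it had 63.2, 63.5 and 83.9 with Doxy and 65.3, 70.3 and 68.7 without. All 4 conditions overlap, and the 83.9 belongs to the GC-rising replicate 3. The change on FDX2 loss was −0.03 at 20% O2 (95% interval −0.26 to 0.20) and −0.04 at 3% O2 (−0.28 to 0.19). With GC correction the intervals narrowed to −0.07 to 0.18 and −0.17 to 0.08. These are mRNA levels, and neither cutting by OMA1 nor the DELE1 protein was measured here.

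The relay to ATF4, which DELE1 enters through HRI, was examined over 10 genes. They were 4 eIF2-alpha kinases (HRI among them), EIF2S1, ATF4, ATF5, DDIT3, PPP1R15A and PPP1R15B. Which kinase acted was not tested. At 20% O2, 3 rose on FDX2 loss, DDIT3 (CHOP, a transcription factor of the stress response) by 2.49, PPP1R15A (a phosphatase subunit that reverses eIF2-alpha phosphorylation) by 1.41 and ATF4 by 0.41, and EIF2AK4 fell by 0.19. At 3% O2 the same 3 rose, by 0.85, 0.94 and 0.52. DDIT3 had 7.96 ± 0.265 CPM with Doxy and 44.8 ± 0.813 without at 20% O2, and 7.84 ± 0.437 and 14.1 ± 0.496 at 3% O2 (SD, n = 3). HRI (EIF2AK1) itself was not called at either oxygen level (−0.10 and −0.04). The medians of the list were −0.02 and −0.03, near those of all genes. Of all tested genes, 35.3% were called at 20% O2 and 7.31% at 3% O2.

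Of 13 tested ATF4 target genes (FGF21 was not tested), 12 rose on FDX2 loss at 20% O2, with a median log2 fold change of 1.74. NUPR1 led with 3.90, ahead of GDF15 (3.46), ATF3 (2.29) and the asparagine synthetase ASNS (2.13). At 3% O2, 3 rose (NUPR1 1.93, GDF15 1.81, ATF3 0.65) and 2 fell, with a median of 0.06, and the response was smaller at 3% O2 in 10 of 13 (median difference −1.46). Over all tested genes, 35.3% were called at 20% O2, 7.31% at 3% O2 and 7.29% for the difference. This list, like the others, was chosen with earlier results of these data known. Here 2 members, DDIT4 and VLDLR, are also targets of the hypoxia factor HIF-1, and they were the 2 that were higher at 3% O2 with Doxy (2.71 and 1.27). None of the 10 mitochondrial genes was called higher at 20% O2, apart from LONP1 under GC correction. Of all 16891 tested genes 2971 were called higher there, and 4462 with GC correction. Counts of 0 and 1 in 10 genes lie near these shares.

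The cytosolic heat shock genes fell with the chaperonin genes. All 11 were lower on FDX2 loss at 20% O2 (median −0.78, −0.97 to −0.57), with HSPA8 at −0.97, HSPA1A at −0.94, HSPA1B at −0.85 and the co-chaperone BAG3 at −0.83. At 3% O2, 5 of 11 were lower (median −0.33), among them HSPA4L (−0.48), HSPA8 (−0.39), HSPH1 (−0.33) and DNAJA1 (−0.28). The GC-corrected fit called 11 and 10 lower, and the 9 libraries 11 and 9. Over all tested genes, 35.3% were called at 20% O2 (17.7% lower) and 7.31% at 3% O2. The shares called were 46.7% and 19.5% with GC correction, and 42.5% and 15.2% in the 9 libraries. The response was smaller at 3% O2 in 5 of 11 (HSPA8 by 0.58, HSP90AA1 by 0.49, HSPH1 by 0.48, DNAJB1 by 0.40), in 8 with GC correction and in 9 in the 9 libraries. For this difference 7.29%, 18.8% and 15.0% of all genes were called, in the same order. HSPA1A and HSPA1B are near-identical copies, so their split of reads is uncertain. Of the 8 ER chaperone genes, 7 fell at 20% O2 (SDF2L1 −0.98, HYOU1 −0.47, PDIA4 −0.46) and DNAJB9 rose (0.74), whereas 2 fell at 3% O2 (HSPA5 −0.36, HSP90B1 −0.22; 6 with GC correction).

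Among the remaining mitochondrial quality control genes, FDX2 loss at 20% O2 gave 2 calls in 10 other chaperones, 5 in 12 other proteases and 4 in 7 inner membrane partners, against 35.3% of all genes. Of 10 other chaperones and parts of the import motor, CLPB (a disaggregase, −0.44) and GRPEL1 (the exchange factor of HSPA9, −0.27) fell at 20% O2, and GRPEL1 fell at 3% O2 (−0.20). Their median was 0.04 at 20% O2. There the GC-corrected fit called 2 of these 10 higher and 3 lower (46.7% of all genes called), and the 9 libraries 1 and 3 (42.5%). Of 12 other proteases and peptidases, AFG3L2 (a subunit of the m-AAA protease, −0.44), ATP23 (−0.39) and PMPCA (of the mitochondrial processing peptidase, −0.36) fell at 20% O2, and 2 rose, IMMP2L (0.43) the more of them. At 20% O2 the GC-corrected fit called 5 of these proteases higher and 3 lower (46.7% of all genes called), and the 9 libraries 4 and 3 (42.5%). At 3% O2 IMMP2L was called higher (0.44), against 7.31% of all genes called. The GC-corrected fit called 2 of the 12 higher and 1 lower there (19.5%), and the 9 libraries 0 and 1 (15.2%). Of 7 inner membrane partners, PGAM5 (an OMA1 substrate, −0.74), the prohibitin PHB2 (−0.42) and OPA1 (the fusion GTPase that YME1L1 and OMA1 cut, −0.33) fell at 20% O2, and PINK1 rose (0.31). The GC-corrected fit and the 9 libraries each called 2 of the 7 higher and 4 lower there, against 46.7% and 42.5% of all genes. At 3% O2 edgeR called 0 of these 7 (log2 fold changes −0.26 to 0.23), and the GC-corrected fit called 2 higher and 2 lower, against 7.31% and 19.5% of all genes.

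By profile over the 12 libraries, no member was among the 3 genes nearest to another member. Likeness was the root mean square difference of log2 CPM, each gene centred on its own mean, over 14939 genes with a symbol. The levels were not GC-corrected, so the 3 libraries that rise with GC enter all these distances. HSPD1 lay nearest to NCL (0.02), RAD21 (0.04) and CKAP2 (0.04). HSPE1 lay nearest to RNF138, EIF1AXP1 and SPC25 (0.12 to 0.13), with its partner HSPD1 in place 343 (0.22). That distance includes 3% O2 + Doxy replicate 3, where HSPE1 deviated from its condition mean by −0.64 and HSPD1 by −0.10. DNAJA3 and DELE1 were 0.07 apart (DELE1 in place 34 from DNAJA3), and HSPA9 and YME1L1 0.06 (place 107 from HSPA9). LONP1 was nearest to HYAL3, TIE1 and ECE1 (0.05 to 0.06) and CLPP to SAFB2, PPP5C and HERC2 (0.04), and LONP1 and CLPP lay 0.16 apart. HSPA9 was nearest to CPSF3, HARS2 and SRRD, CLPX to MTCH2, UBR2 and MT-CO1, YME1L1 to SRP72, ITGA6 and CAT, OMA1 to MBTD1, ERI1 and METTL14, and DELE1 to RUBCN, SFSWAP and CEP164 (all 0.03 to 0.05).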

How the data were processed

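The authors aligned poly(A) RNA reads to GRCh38 with STAR, counted them per gene with featureCounts and deposited raw counts (versions, annotation and strand setting are not given in the sources used here). One FASTQ file each of 20% O2 + Doxy replicates 1 and 2 was lost, per the labels, and their counts were kept. All 58735 identifiers matched GENCODE 29. Counts were fitted in R 4.3.3 with edgeR 4.0.16 (filterByExpr, minimum count 10, total 15; TMM; quasi-likelihood test, 4 condition means, 12 libraries, 8 residual degrees of freedom), with Benjamini-Hochberg adjustment over 16891 genes, a threshold of 0.05 and t-based 95% intervals, and DESeq2 1.42.0 as an alternative. The steps were tested on simulated data. These held no GC trend, so how well the GC correction removes one was not tested. Replicates differed beyond sampling noise (chi-square per gene 2.47 to 37.5).

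The members and lists were chosen with earlier results of these data known. Text names all 10 members, at most 4 called genes per list and comparison by absolute fold change, and the 3 nearest profiles. GC trends (a lowess curve with a span of 0.3 through genes over 2 in log2 CPM, used as offsets), the fit to 9 libraries and the fits to the 6 libraries without Doxy were added after seeing the data. Deviations of same-numbered libraries correlated at 0.19 to 0.50 between the conditions without Doxy (other pairs −0.47 to 0.23), so numbers may pair there. This is a hint from the data and is not stated by the labels. Promoter windows are from RefSeq.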

Additional observations from a re-analysis of the deposited data

Results flagged for a closer look

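The response to FDX2 loss differed between 3% and 20% O2, by edgeR's test of the difference itself (Benjamini-Hochberg adjusted over all tested genes), for HSPD1 (0.35 on the log2 scale, 3% minus 20% O2, adjusted p = 0.0222), in the sense of a smaller fall at 3% O2. The HSPD1 call held in 7 of the 12 fits that left out 1 library and in 2 of 6 other planned settings. Among the genes named for each comparison list, at most 4 a list, were the ATF4 targets ASNS (−2.13), NUPR1 (−1.97), CHAC1 (−1.90) and DDIT4 (−1.74) and the relay gene DDIT3 (−1.64), whose responses were more positive at 20% O2. Among cytosolic chaperones HSPA8 (0.58), HSP90AA1 (0.49), HSPH1 (0.48) and DNAJB1 (0.40) fell less at 3% O2. In the ER list SDF2L1 differed by 0.98 and DNAJB9 by −0.65. Groups of 3 were not tested for single outlying libraries.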

How the results depend on the processing

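The fall of HSPD1 at 20% O2 kept its call under every alternative run (−0.69 to −0.51), and that of CLPP under every one except the GC correction. Calls among the 10 genes moved by over 1.5 times as follows. For FDX2 loss at 3% O2 (1 call) there were 0 with library totals in place of TMM and in a fit to the compared libraries only, 2 with the GC correction and 2 in the 9 libraries. For the difference of the responses (1 call) there were 0 with library totals, without a filter, with at least 10 counts in every library and with a replicate block, and 2 with the GC correction. For oxygen with Doxy (0 calls) the GC correction and the 9 libraries gave 1 each, and without Doxy (2 calls) 1 and 4. Leaving out 1 library at a time gave 2 to 4 calls for FDX2 loss at 20% O2, 0 to 2 at 3% O2, 1 to 3 for oxygen without Doxy and 0 to 1 for the difference. With the GC correction LONP1 turned to 0.22 for FDX2 loss at 20% O2 and −0.33 for the difference, from uncalled values. The causes of these moves were not tested.

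Among all tested genes, calls for FDX2 loss at 3% O2 (1235) became 678 without a filter, 676 with the replicate block, 218 in the compared libraries only, 1944 by DESeq2, 3301 with the GC correction, 2610 in the 9 libraries and 581 to 1605 when leaving out 1 library. For the difference (1231) they became 672, 615 with the block, 1916 by DESeq2, 3183 with the GC correction, 2568 in the 9 libraries and 520 to 2191. For oxygen with Doxy (341) they became 218 with the block, 128, 629 by DESeq2, 1310, 520 and 190 to 388, in the same order, and without Doxy (4360) 2321 to 4200 when leaving out 1 library. Of 114 alternative values of the 7 called results of single genes, 90 kept call and direction and 24 kept the direction only. With the replicate block over 12 libraries HSPE1 at 20% O2 (adjusted p = 0.0603) and the HSPD1 difference (adjusted p = 0.0619) lost their calls. Leaving 1 condition with 2 libraries assumes that these vary like the others. OMA1, with the fewest counts, had an interval on FDX2 loss at 3% O2 that reached −0.32 on the log2 scale.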
